A study of Homo sapiens with 4 samples.

Results

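The replication-dependent core histone genes were examined on arrays of RNA bound by TIA1 and of total RNA from KYSE180 cells. A gene was taken as a member when a probe that was not a control carried a transcript identifier whose current symbol starts with H2AC, H2BC, H3C or H4C followed by a number, which covers the older HIST1 to HIST4 names. There were 62 such genes among 24154 genes with a symbol on the array, namely 18 H2A, 18 H2B, 12 H3 and 14 H4 genes, measured by 78 probes. KYSE180 is a single cell line of esophageal squamous cell carcinoma, and 5 of 5 squamous epithelial markers (KRT5, KRT14, KRT6A, TP63 and SOX2) were detected on all 4 arrays. TIA1 is an RNA-binding protein that acts on the splicing, translation and stability of its targets. The TIA1_RIP group held 2 arrays of RNA immunoprecipitated with an anti-TIA1 antibody from cytoplasmic lysates, and the total group held 2 arrays of total RNA described as the input. No treatment or genotype is given for either group, and IgG precipitates were not analysed here. The labels do not say whether same-group samples came from separate cultures, so p-values measure only the spread between these samples, which may be technical.

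Core histones package DNA: a tetramer of H3 and H4 and a pair of H2A-H2B dimers form the octamer of a nucleosome. The replication-dependent genes lie in clusters, lack introns and are transcribed when DNA is replicated. Their mRNAs are the metazoan mRNAs known to end in a conserved stem-loop in place of a poly(A) tail, and the stem-loop binding protein SLBP, together with the U7 snRNP, directs the cleavage that makes this end.

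The stem-loop was read from the GRCh37 genome, the build named in the file headers, since it is the feature by which these mRNAs differ from most others. All 58 members on the array with a coding gene model in the GENCODE annotation held it 22 to 67 bases after the stop codon (median 35), on the transcript strand and within a window of 150 bases. The shape searched was GGNNNTTNNNANNNCC with a stem of 6 pairs (G-T allowed) around a loop of 4 bases, and the same window held it in 79 of 19807 protein-coding genes (0.399%), of which 60 are genes of these 4 families. H2AC2P, H2BC7, H2BC8 and H4C6 were on the array but had no such model. The 58 genes with a model are not the same set as the 58 measured below, of which 55 had a model. The sites of 8 genes that the results below turn on are shown 5′ to 3′ on the transcript strand, with the 16 bases of the stem-loop in capitals.
H3C15: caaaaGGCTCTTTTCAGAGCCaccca
H3C1: gcaaaGGCTCTTTTCAGAGCCaccac
H4C5: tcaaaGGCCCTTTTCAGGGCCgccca
H4C1: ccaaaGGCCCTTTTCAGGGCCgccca
H2AC11: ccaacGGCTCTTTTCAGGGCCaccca
H2AC6: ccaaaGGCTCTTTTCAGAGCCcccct
H2BC6: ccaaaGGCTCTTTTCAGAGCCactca
H2BC12: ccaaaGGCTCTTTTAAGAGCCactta
These sites lie at chr1:149824662-149824687 (plus strand) for H3C15, chr6:26021155-26021180 (plus) for H3C1, chr6:26205224-26205249 (plus) for H4C5, chr6:26022253-26022278 (plus) for H4C1, chr6:27101289-27101314 (plus) for H2AC11, chr6:26124892-26124917 (plus) for H2AC6, chr6:26184433-26184458 (plus) for H2BC6 and chr6:27114140-27114165 (minus) for H2BC12. Of the 58 genes with a model, 46 lie on chromosome 6, 11 on chromosome 1 and 1 on chromosome 12, and each was a single exon in the model used. The coding sequences within a class were close to each other: the nearest member of the same length was 87.5% identical at the median in H4, 88% in H3, 90.6% in H2A and 93.7% in H2B. The deposited files hold no probe sequences, so it is not known here which members a probe could share, and single genes are uncertain to that degree.

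Signals are given as log2 values relative to the 75th percentile of the same array, and the log2 ratio is the mean of the TIA1_RIP arrays minus the mean of the total RNA arrays. After probes that were not well above background in both arrays of at least 1 group had been left out, 58 of the 62 members remained among 13039 genes (16 H2A, 17 H2B, 12 H3 and 13 H4). H2AC2P, H2AC25, H2BC1 and H4C7 did not pass. Of those that passed, H2AC1 and H4C16 did so only through total RNA, the group in which they were high. Counts of genes below others are therefore given for the remaining 56 or, where stated, for all 58. Total RNA replicate 2 stood apart from the other arrays. Its 75th percentile was 69.9 against 714 to 1514 on the others, 32.2% of its spots were well above background against 45.8% to 48.4%, and across genes it correlated with total RNA replicate 1 at r = 0.73, whereas that array correlated with TIA1_RIP replicate 1 at r = 0.94.

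The core histone genes had far lower ratios of TIA1_RIP to total RNA than the other genes. In TIA1_RIP itself the members' median log2 signals were 1.29 and 0.92, above the 0.50 and 0.49 of all genes. In total RNA the members' medians were 3.68 and 5.84, against 0.49 and 0.56 for all genes. Their median log2 ratio was -3.28 after the median over all genes tested, here called the all-gene median, had been subtracted, and in 54 of the 56 genes detected in TIA1_RIP these arrays lay below the total RNA arrays without overlap, as they did in 21.7% of all genes tested. The lower quartile, median and upper quartile of the members were -4.29, -3.28 and -1.80, against -0.79, 0 and 0.78 for all genes. The ratio sets an immunoprecipitate against total RNA in bulk samples. It does not measure how many cells hold an mRNA or how much each cell holds. In limma, which pools the spread over all genes, 0 of 58 members passed an adjusted p of 0.05 (lowest adjusted p = 0.59), and 0% of all genes were lower at that threshold. At an unadjusted p under 0.05, 37 of the 56 were lower and 0 were higher, against 4.02% and 1.1% of all genes (38 of 58 with H4C16 and H2AC1 included). Without total RNA replicate 1 the median of the 58 relative to the all-gene median was -4.22, and without total RNA replicate 2 it was -2.16. Without TIA1_RIP replicate 2 it was -3.04.

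The size of the difference moved with the total RNA array it was set against. Relative to the all-gene median, the members' median was -1.99 and -2.34 for TIA1_RIP replicates 1 and 2 against total RNA replicate 1, and -4.21 and -4.44 against total RNA replicate 2. Members were a median of 2.24 log2 units higher in total RNA replicate 2 than in replicate 1, against 0.38 for all genes, and the median difference of TIA1_RIP replicate 2 from replicate 1 was -0.26 in the members. With total RNA replicate 2 left out, the median was -2.16. The direction is relative to the other genes of the same array: with the E1A spike-in controls as the scale, the all-gene median lay at 4.78 and 50 of the 58 members had a log2 ratio above 0, while positions relative to the all-gene median stay the same by construction, as with median scaling. With normexp background correction and with quantile normalization, which can move these positions, 57 of 58 members lay below it, as they did on the 75th percentile scale.

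**Figure D1:**
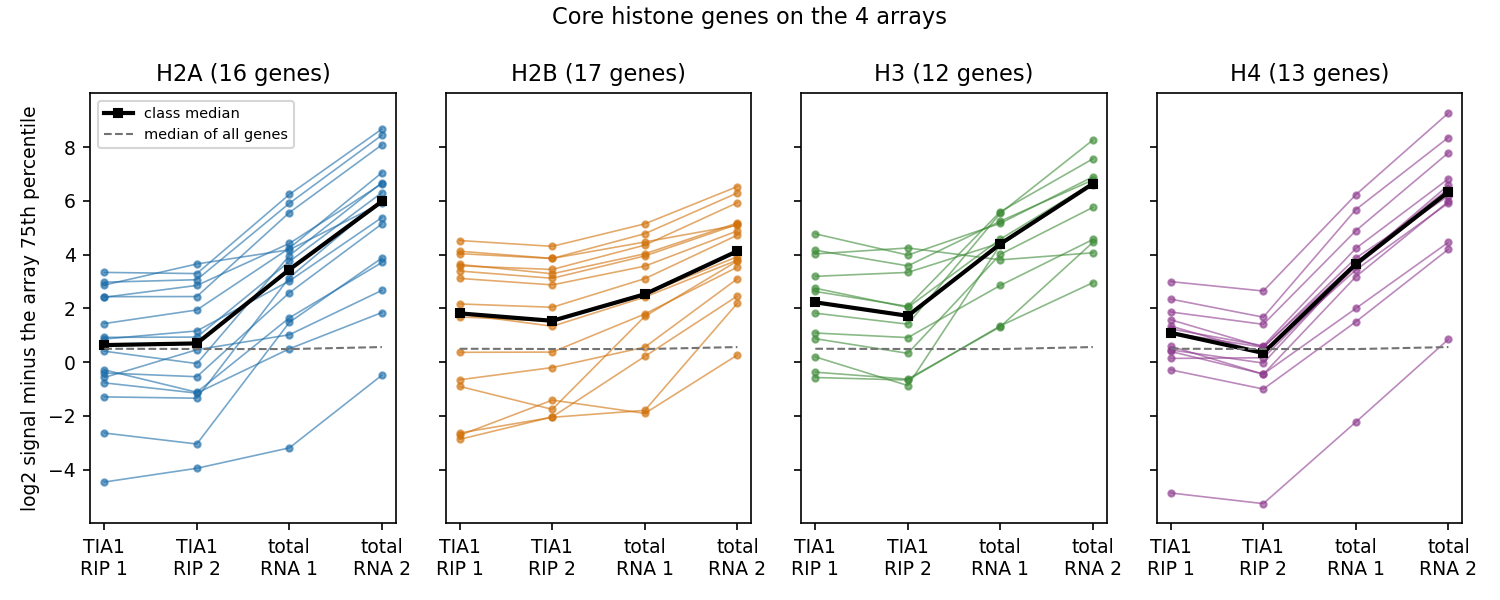
Log2 signal minus the 75th percentile of the array (vertical axis) on the 4 arrays (horizontal axis), with 1 thin line for each core histone gene, the class median in black and the median of all 13039 genes dashed. The class medians lie at 0.34 to 2.23 in TIA1_RIP and at 2.53 to 6.64 in total RNA, and are highest in total RNA replicate 2; lines join arrays only to follow a gene.

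The H4 genes, which encode the partner of H3 in the tetramer, had the lowest class median and the narrowest range. The 12 genes detected in TIA1_RIP lay between -4.97 and -3.21 relative to the all-gene median (median -4.52, or -4.47 with H4C16). They were below it in each of the 4 pairs of arrays, as were 21.3% of all genes tested. All 12 were lower at an unadjusted limma p under 0.05, against 4.02% of all genes. H4C5 had log2 signals of 2.35 and 1.67 in TIA1_RIP and 5.68 and 8.36 in total RNA, a log2 ratio of -5.01 ± 1.06 (SE, limma, adjusted p = 0.59). H4C2 had 3.0 and 2.65 in TIA1_RIP and 6.23 and 9.27 in total RNA, and H4C4 had 0.46 and -0.03 against 3.65 and 6.59. In each of the 3, the groups were separated by more than 3 log2 units, and total RNA replicate 2 was the highest array. At the upper end of the class, H4C6 had 0.40 and -0.44 in TIA1_RIP and 2.00 and 4.46 in total RNA (log2 ratio -3.25), and H4C1 had -0.28 and -1.0 against 1.50 and 4.20 (-3.49). Even here the groups did not overlap. H4C16, which lies alone on chromosome 12, was not well above background in TIA1_RIP, and its log2 signals in total RNA were -2.22 and 0.85. By its bound it was at least 6.12-fold higher in total RNA (limma adjusted p = 0.66), or 2.11-fold against total RNA replicate 1 alone. H4C11 and H4C12, whose coding sequences are identical, had ratios of -4.17 and -4.57 relative to the all-gene median.

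The H3 genes spread most widely, from -5.79 to 0.24 relative to the all-gene median (12 genes, median -2.97), and 9 of 12 were lower at an unadjusted p under 0.05. H3C15 had the lowest p of the 58 genes: its log2 signals were 0.20 and -0.87 in TIA1_RIP and 4.37 and 6.61 in total RNA, a log2 ratio of -5.82 ± 1.01 (SE, limma, unadjusted p = 0.00065, adjusted p = 0.59). H3C2 had 1.82 and 1.42 against 5.54 and 8.26 (log2 ratio -5.28), and H3C7 had 0.88 and 0.33 against 4.02 and 5.76 (-4.28). H3C15 and H3C2 lay below each of the 13 H4 genes. H3C3, at the other end, had 4.78 and 3.98 in TIA1_RIP and 5.17 and 6.90 in total RNA, a log2 ratio of -1.65 (adjusted p = 0.78). H3C1 was the exception among the 58 genes. Its log2 signals were 4.03 and 4.25 in TIA1_RIP and 3.81 and 4.07 in total RNA, so that the groups overlapped, with a log2 ratio of 0.20 ± 0.77 (SE, limma, adjusted p = 0.95). It lay above the all-gene median in each of the 4 pairs of arrays, by 0.15 to 0.47, and its total RNA arrays differed by less than those of any other member. H3C1 was measured by 1 probe, and its stem-loop is the same 16 bases as that of H3C15.

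The H2A genes, whose products pair with H2B in the dimers flanking the tetramer, had low ratios as well. The 15 genes detected in TIA1_RIP were below the all-gene median in each of the 4 pairs, as were 21.3% of all genes tested. They lay between -5.87 and -1.75 (median -4.06, or -3.99 with H2AC1). At an unadjusted limma p under 0.05, 13 of 15 were lower, against 4.02% of all genes. H2AC11 had the lowest log2 ratio of all members: its signals were -1.29 and -1.34 in TIA1_RIP and 3.15 and 6.04 in total RNA, a log2 ratio of -5.91 ± 1.09 (SE, limma, adjusted p = 0.59). Another H2AC11 probe, well above background on 1 TIA1_RIP array only, was not kept. It had -2.97 and -3.08 in TIA1_RIP and -3.93 and -3.29 in total RNA (log2 ratio 0.58). H2AC13 had -2.63 and -3.04 against 1.48 and 3.88, where 1 of its 2 probes was not well above background in TIA1_RIP, and H2AC20 had 0.41 and -0.05 against 3.97 and 6.68. In these genes the TIA1_RIP arrays lay within 0.5 log2 units of each other and at least 3.5 below either total RNA array. The highest were a pair with identical coding sequences on chromosome 1, H2AC18 and H2AC19. H2AC18 had 2.87 and 3.65 in TIA1_RIP and 4.18 and 5.92 in total RNA (log2 ratio -1.79), and H2AC19 had -0.57 and 0.46 against 1.02 and 2.67 (-1.90). Their ratios differed by 0.11. H2AC1 was not well above background in TIA1_RIP, and its log2 signals in total RNA were -3.19 and -0.48. By its bound it was at least 2.76-fold higher in total RNA (limma adjusted p = 0.78), but 1.08-fold against total RNA replicate 1 alone, so that the bound rests on replicate 2.

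The H2B genes lay nearest to the other genes. Their median was -1.55 relative to the all-gene median (17 genes, -4.03 to -0.75), and 3 of 17 were lower at an unadjusted p under 0.05. Even so, 16 of 17 lay below the all-gene median in each of the 4 pairs, a position held by 21.3% of all genes. H2BC12 had log2 signals of 4.13 and 3.86 in TIA1_RIP and 4.47 and 5.10 in total RNA, a log2 ratio of -0.79 ± 0.79 (SE, limma, adjusted p = 0.81). H2BC14 had 3.64 and 3.29 against 4.03 and 5.18 (log2 ratio -1.14). The groups did not overlap in either gene, by a small margin against total RNA replicate 1. H2BC21 was the gene of the class whose groups overlapped, at -2.72 and -1.41 in TIA1_RIP and -1.90 and 0.27 in total RNA, and it lay 0.43 above the all-gene median in the pair of TIA1_RIP replicate 2 and total RNA replicate 1. A pair of H2B genes stood with the other classes. H2BC7 had -0.90 and -1.75 in TIA1_RIP and 1.71 and 3.77 in total RNA (log2 ratio -4.06 ± 0.97, SE, adjusted p = 0.59), and H2BC6 had -2.87 and -2.03 against 0.22 and 2.46 (-3.79 ± 1.00, SE, adjusted p = 0.69). H2BC26 came next, at -2.63 and -2.05 in TIA1_RIP and -1.79 and 2.20 in total RNA, where the total RNA arrays were 3.99 apart.

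**Figure D2:**
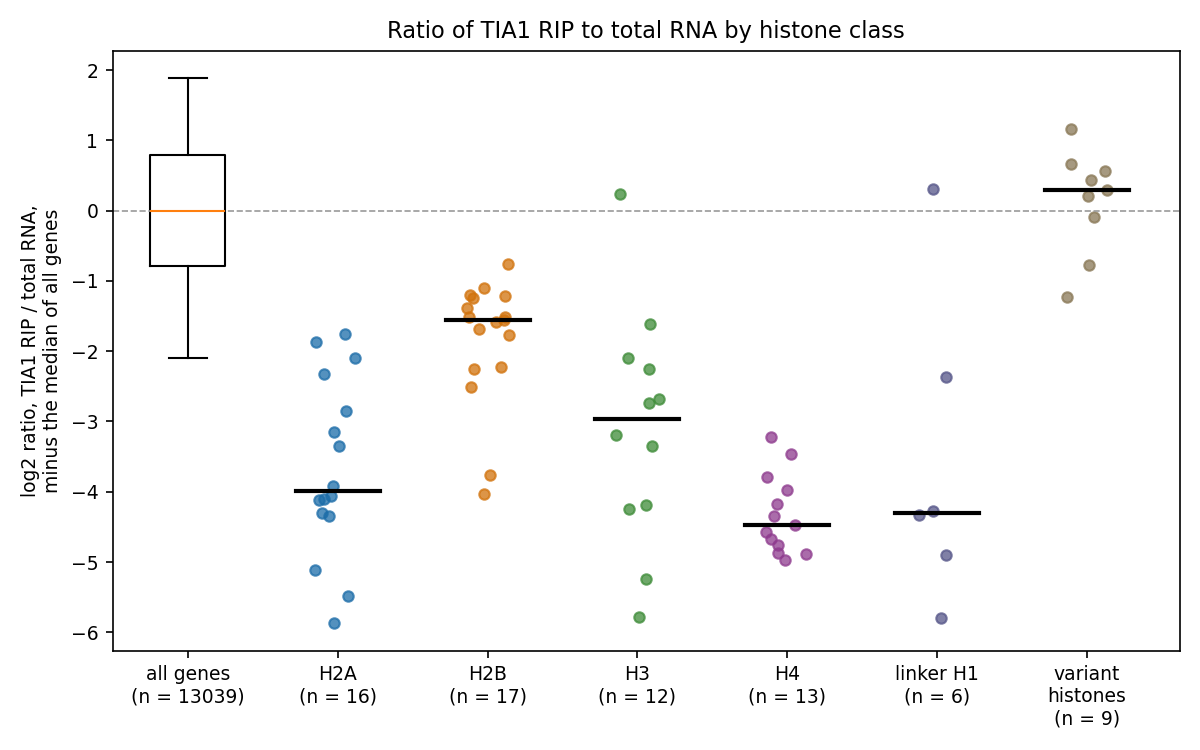
Log2 ratio of TIA1_RIP to total RNA minus the all-gene median (vertical axis) for 13039 genes (box from the lower to the upper quartile, whiskers from the 5th to the 95th percentile) and, as points with their median as a bar, for the H2A, H2B, H3 and H4 genes, the linker histone genes and the variant core histone genes. The medians are -3.99, -1.55, -2.97 and -4.47 for H2A, H2B, H3 and H4, and with E1A scaling, where all genes shift by the same amount, the values relative to that median do not move.

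The classes kept their places in most pairs of arrays. Relative to the all-gene median, the H2B median was -0.84 and -0.97 against total RNA replicate 1 and -2.06 and -2.17 against replicate 2, and was the highest of the 4 class medians in each pair. The H3 medians were -1.86 and -2.05 against replicate 1 and -3.43 and -3.86 against replicate 2, and came next in each. The H4 medians were -2.85 and -3.47, and then -5.29 and -5.88, while the H2A medians were -2.88 and -2.86, and then -5.06 and -4.95. H4 and H2A thus differed by 0.03 for TIA1_RIP replicate 1 against total RNA replicate 1, with H2A the lower, and H4 was the lower in the other 3 pairs. By gene, 15 of 17 H2B genes lay above the highest H4 gene, as did 7 of 12 H3 genes and 6 of 16 H2A genes. The H2A count includes H2AC1, which was not well above background in TIA1_RIP. The genes of a class share arrays and sequence and are not replicates, and 2 arrays against 2 allow no exact permutation p below 0.333 (two-sided), so the difference between classes is given as values with no test.

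**Figure D3:**
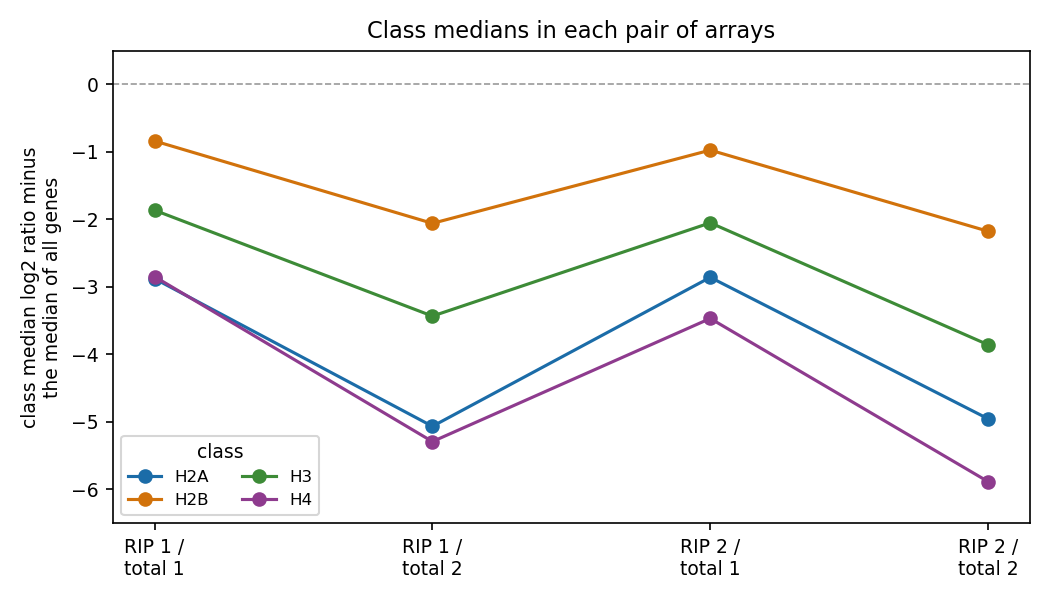
Median log2 ratio of each class minus the all-gene median (vertical axis) in each of the 4 pairs of a TIA1_RIP and a total RNA array (horizontal axis). H2B lies highest in each pair, at -0.84 to -2.17, and all classes lie lower against total RNA replicate 2; lines join pairs only to follow a class.

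**Figure D4:**
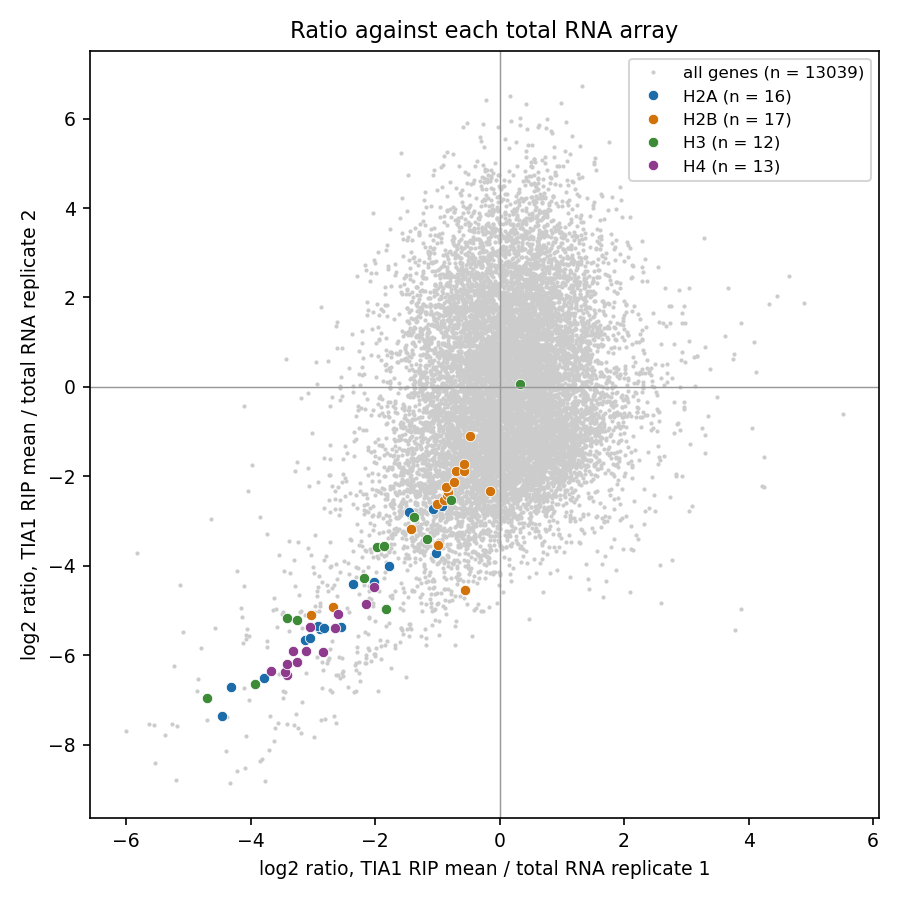
Log2 ratio of the mean of the TIA1_RIP arrays to total RNA replicate 1 (horizontal axis) and to total RNA replicate 2 (vertical axis) for all 13039 genes in grey and the 58 core histone genes in colour by class. H3C1 is the single member above 0 on both axes, and with E1A scaling all genes shift alike toward higher ratios on both axes.

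Genes of similar signal in total RNA did not lie as low. The 28 members in the middle of the members' range of mean total RNA signal (2.94 to 5.54) had a median of -3.18 relative to all genes, against -0.46 for 1840 other genes in that range. Of the members that passed, 56 had a probe well above background on all 4 arrays.

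Most members were measured by 1 kept probe, but 11 had 2 or more, and probes of the same gene did not always move together. In 8 of the 11 the probes lay within 1.47 log2 units of each other in the ratio, down to 0.02 for H2BC18. In 3 they lay more than 2 apart. H2AC6 had the widest gap. Its probes named by the RefSeq transcript were lower in TIA1_RIP: a probe of -0.56 and -0.41 in TIA1_RIP had 2.47 and 5.11 in total RNA (log2 ratio -4.27), and another, well above background on 1 of the 2 TIA1_RIP arrays, had -3.22 and -4.69 against -1.53 and 0.76 (-3.57). Its other probe, named by an Ensembl transcript, ran the other way, with 1.48 and 1.66 in TIA1_RIP and 0.56 and -0.33 in total RNA, a log2 ratio of 1.45. That transcript, as annotated on GRCh37, has 2 exons and 1187 bases after the stop codon. Its first exon holds the stem-loop shown above, and its second exon lies downstream at chr6:26138282-26139344. Where the probe lies in this transcript is not known. The gene mean of H2AC6 (log2 ratio -2.13) thus averages probes of opposite direction. The ratio of the Ensembl probe was 1.43 with normexp background correction, 1.64 with quantile normalization, 1.69 with scaling to the median of detected probes and 6.27 with E1A scaling.

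H3C10 had a probe at 0.32 and -0.04 in TIA1_RIP and 3.38 and 5.13 in total RNA (log2 ratio -4.12) and another at -1.45 and -1.28 against -0.67 and 0.79 (-1.43). H4C1 had a probe at 0.43 and -0.27 against 3.43 and 6.31 (-4.79) and another at -1.0 and -1.73 against -0.42 and 2.10 (-2.20). In both genes the probes ran the same way and differed in size. The probes of H2BC12, the highest H2B gene, had ratios of -1.50 and -0.08, and the second of them was level over the 4 arrays, between 4.97 and 5.19. Over all members, 68 of 70 kept probes lay below the all-gene median, the others being the probe of H3C1 and the Ensembl probe of H2AC6. That count depends on the filter. It includes probes of H2AC1, H4C16 and H2AC13 that were kept through total RNA alone. Of the probes not kept, those of H2AC11 (0.62) and H2BC21 (0.57) lay above the all-gene median and the others below.

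**Figure D5:**
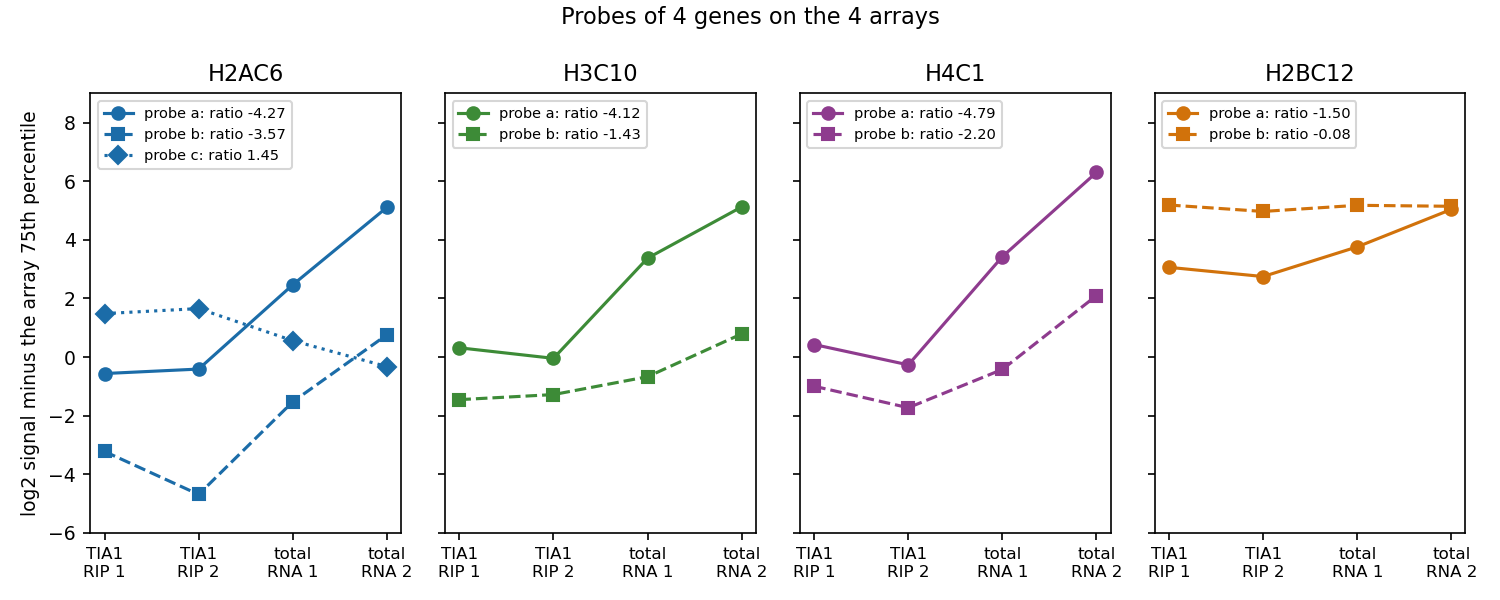
Log2 signal minus the 75th percentile of the array (vertical axis) on the 4 arrays (horizontal axis) for each kept probe of H2AC6, H3C10, H4C1 and H2BC12. Probe c of H2AC6, named by the Ensembl transcript of 2 exons, is highest in TIA1_RIP (1.48 and 1.66). Its position in that transcript is not known. The other probes of H2AC6 are highest in total RNA. With E1A scaling all probes shift toward TIA1_RIP alike.

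Genes with the same stem-loop differed in their ratios. The commonest form, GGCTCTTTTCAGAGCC, was shared by 32 measured members, whose ratios relative to the all-gene median spanned -5.79 to 0.24: the 12 H2A genes with it had a median of -3.25, the 10 H3 genes -3.05 and the 10 H2B genes -1.53. The 8 H4 genes with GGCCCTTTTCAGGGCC had a median of -4.50, and the 3 with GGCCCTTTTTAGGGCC had -4.47. Some members had an annotated transcript that reached more than 100 bases past the stem-loop. The 16 measured members with one had a median of -2.25, against -4.06 for the 39 without. Within H2A the medians were -2.10 for 3 genes with such a transcript and -4.10 for 13 without, within H3 -2.49 for 2 genes and -3.27 for 10, and within H4 -3.98 for 3 genes and -4.67 for 9. H2B ran the other way, with -2.0 for 8 genes and -1.39 for 7. These are descriptions with no test. The 3 H2A genes with such a transcript were H2AC1, H2AC18 and H2AC6, and the H2AC6 value was their median. That gene mean averages probes of opposite direction, at -4.24, -3.54 and 1.49 relative to the all-gene median. H2AC1, and H4C16 among the 3 H4 genes, were not well above background in TIA1_RIP.

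Ratios were also set against that of GAPDH, which encodes an enzyme of glycolysis and served as the reference mRNA, with a fold of 2.5. GAPDH had log2 signals of 6.49 and 6.69 in TIA1_RIP and 7.67 and 9.63 in total RNA, a log2 ratio of -2.06. Its ratio was thus itself low beside those of other genes. The ratios of 72.4% of all genes were more than 2.5-fold above it and 1.62% more than 2.5-fold below. Of the core histone genes, 28 of 58 (48.3%) were more than 2.5-fold below GAPDH, namely 12 of 13 H4, 9 of 16 H2A, 5 of 12 H3 and 2 of 17 H2B genes, and 29 lay within 2.5-fold of it. Without the genes kept through total RNA alone the count was 27 of 56, and it was 25 with normexp background correction and 40 with quantile normalization. H3C1 alone was more than 2.5-fold above, at a log2 difference of 2.26, and with quantile normalization or with the all-gene median as the reference it was not. H2AC11 and H3C15 were the lowest, at 14.4-fold and 13.6-fold below GAPDH. With the all-gene median as the reference, 52 of the 58 members were more than 2.5-fold below it, H2AC1 and H4C16 among them. The share of all genes past that fold was not counted. The lower quartile of all genes lay at -0.79 in log2 units from that median.

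Linker histone genes, which encode the H1 proteins bound to DNA between nucleosomes, differed among themselves. The 6 measured genes of the list had a median of -4.30 relative to the all-gene median, and 5 had an unadjusted p under 0.05 and were lower (0 by adjusted p). H1-5 had 1 site of the same stem-loop shape after its stop codon, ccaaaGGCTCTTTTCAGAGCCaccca at chr6:27834570-27834595 (minus), and log2 signals of -1.02 and -1.78 in TIA1_RIP and 3.46 and 5.40 in total RNA (log2 ratio -5.83, adjusted p = 0.59). H1-1 was next, with a log2 ratio of -4.93. At the other end, H1-2 had a log2 ratio of -2.40 (unadjusted p = 0.037, adjusted p = 0.78) and H1-10, in which the shape was not found in the window, had 0.27 (adjusted p = 0.94). The variant core histone genes, which are transcribed also outside DNA replication and have polyadenylated mRNAs, had a median of 0.29 (9 genes), with 0 of 9 past an unadjusted p of 0.05. The lowest were H2AJ (log2 ratio -1.27) and H2AX (-0.80), and the highest CENPA (1.12), the centromeric H3, and H3-3A (0.63). H2AX held the stem-loop shape as well.

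The genes of a list for histone mRNA processing and regulation, which also holds polyadenylation factors, lay near the other genes. The 24 measured genes of 29 listed had a median of 0.50 relative to the all-gene median, which was 0.08 and -0.27 against total RNA replicate 1 and 1.52 and 0.78 against replicate 2. At an unadjusted p under 0.05, 1 was lower and 1 higher, near the shares of all genes (4.02% and 1.1%), and 0 passed an adjusted p of 0.05. SYMPK, a scaffold of the cleavage complex, had log2 signals of 3.29 and 2.22 in TIA1_RIP and 4.82 and 6.45 in total RNA (log2 ratio -2.88, unadjusted p = 0.017, adjusted p = 0.78). WDR33, a subunit of the polyadenylation complex that reads the poly(A) signal, had 3.27 and 3.80 against 1.79 and 0.77 (2.25, unadjusted p = 0.029, adjusted p = 0.78). SLBP had 3.94 and 3.85 against 3.41 and 2.25, a log2 ratio of 1.07 ± 0.83 (SE, limma, adjusted p = 0.78). Its groups did not overlap, with TIA1_RIP the higher, as was so in 2534 of the 13039 genes tested.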

How the data were processed

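Each deposited file holds the spots of 1 single-colour array as read by Agilent Feature Extraction (version 10.7 per the labels). The authors' values are spot intensities on a linear scale, of which the background-subtracted processed signal was used, and the median intensities of spot and background in an alternative. Other deposited columns flag outlier, saturated and detected spots. Per the labels, 0.2 ug of RNA was labelled with Cy3 by a low-input kit. The files were not normalized between arrays.

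The processed signal of 58717 spots other than controls was taken as log2 without outlier spots, and each array's 75th percentile was subtracted. Detection of a probe needed a share of 0.5 or more of its spots well above background, and probes detected throughout either group were kept. Identifiers were matched to symbols through RefSeq accessions (names only) and GENCODE transcripts on GRCh37, for 34510 of 50599 probes, and the kept probes of a gene were averaged. The lmFit and eBayes functions of limma 3.58.1 (R 4.3.3) compared TIA1_RIP with total RNA over 13039 genes, with Benjamini-Hochberg adjustment and a threshold of 0.05. The fit was tested on simulated data. A bound ("at least N-fold") sets the mean of the total RNA arrays against the lowest signal of probes well above background. Figures were drawn with matplotlib 3.10.9. No spot was saturated, and the number of arrays limits the precision.

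The genes named were, in each class, the 3 lowest and 2 highest log2 ratios, members at or above the median of all genes in any pair, the member with the lowest p, and members whose kept probes lay more than 2 apart. Genes of the histone mRNA processing list past an unadjusted p of 0.05, SLBP, and the 2 lowest and 2 highest linker and variant histones were named too. A single linker histone gene was left out and is not reported here. H2AC1, H4C16, H4C11, H4C12 and the probes of H2BC12 were added after their values were seen. The members and lists were chosen with earlier results of these data known. Alternatives covered the background correction, scaling, detection filter, floor, choice of probe, reference gene, fold, the replicate number and each array left out.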

Additional observations from a re-analysis of the deposited data

How the results depend on the processing

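The 5 medians kept their sign under each setting run. Across the settings that use all 4 arrays, the median of the members ranged from -3.49 to -2.55, and those of H3, H4 and H2B stayed within the spread between arrays. The H2A median was -2.71 with no detection filter. With each array left out in turn, the members' median ranged from -4.22 to -2.16 and that of H2A from -5.06 to -2.76, in each case highest without total RNA replicate 2. The labels give no paired design and link same-numbered arrays by their number only. Their deviations from the group means correlated at r = 0.45 across genes. A limma fit with a replicate block put 33 members below an adjusted p of 0.05 and lower, among 299 of all genes. The H4 genes made up 13 of them, H2A 12, H3 6 and H2B 2. Leaving out each array gave 0 to 54 such members, the highest without total RNA replicate 1, and 25 to 56 members at an unadjusted p under 0.05. Each of those fits left 1 array in a group. Without total RNA replicate 1, many genes other than the members were called too, both lower and higher. The 54 and 56 therefore do not mark the members alone. With E1A scaling, 0 members were lower at an unadjusted p under 0.05. Under that scaling, 2 members were higher at an unadjusted p under 0.05 and 1 at an adjusted p under 0.05. Of all 13039 genes, 8408 were then called higher. With the all-gene median as reference, 52 of the 58 members were more than 2.5-fold below it and 0 above. The 52 include H2AC1 and H4C16, and the share of all genes past that fold was not counted. Members more than 2.5-fold above GAPDH numbered 0 with quantile normalization, 2 with no detection filter, 2 with the brightest probe, 2 at 2-fold, and 1 to 3 with each array left out. Probes named by RefSeq accessions alone, a setting chosen after seeing the data, gave a members' median of -3.38. The normexp alternative was run on the median spot intensity. A block for slide or scan was not run, because the 4 arrays share both. Signals near background limit H2AC1 and H4C16 to bounds.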

Other observations

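The histone assembly factors, which escort new histones from their synthesis to DNA, spread on either side of the all-gene median. The 18 listed genes were all measured, and their median was 0.52 above the all-gene median. It was -0.34 and -0.55 against total RNA replicate 1 and 0.79 and 0.82 against replicate 2, so its sign turned with the total RNA array. At an unadjusted limma p under 0.05, 1 was lower and 0 were higher, near the 4.02% of all genes that were lower, and 0 passed an adjusted p of 0.05. That gene was IPO4, an importin that carries H3 and H4 into the nucleus, with log2 signals of 2.78 and 1.57 in TIA1_RIP and 3.76 and 5.03 in total RNA (unadjusted p = 0.042, adjusted p = 0.78). The highest ratio was that of HAT1, which acetylates new H4, at 3.68 and 3.72 in TIA1_RIP and 3.94 and -1.17 in total RNA, so that its groups overlapped and its total RNA arrays were 5.11 apart. The genes of this list were named after their values were seen.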
